A study of Mus musculus with 24 samples.

Results

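The alcohol, aldehyde and retinol dehydrogenases described here are 9 mouse genes, Adh1, Adh5, Adh7, Aldh1a1, Aldh1a7, Aldh2, Aldh3a2, Rdh7 and Rdh11, out of 18193 genes that the platform annotation names singly. All probe sets annotated to one of these symbols alone were taken, which gave 16 probe sets. Their RNA was measured in a time course of the immortalized mouse hepatocyte line MMH-D3, which derives from the liver of mice that carry a truncated Met transgene. All cells had been differentiated for 14 days in medium with 2% DMSO and then synchronized by a serum shock, a pulse of serum that sets the circadian clocks of cultured cells to a common phase. The series holds 24 Affymetrix arrays, 1 for each time from 12 to 58 h after the shock at intervals of 2 h, with no replicate. Cultures without a shock were not analysed here.

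These enzymes use NAD or NADP to move hydride between alcohols, aldehydes and acids. Alcohol dehydrogenases turn ethanol into acetaldehyde, which aldehyde dehydrogenases oxidize to acetate, and the liver carries most of this flux in the body. Retinol follows a parallel route, in which alcohol dehydrogenases or the short-chain retinol dehydrogenases make retinaldehyde and the Aldh1a enzymes make retinoic acid, the ligand of the retinoic acid receptors. In other tissues and in cancer, Aldh1a1 is also used as a marker of progenitor cells.

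Over the 46 h of sampling, Adh1, Rdh7, Aldh1a7 and Aldh1a1 fell by several-fold, Rdh11 fell by less, and Adh5, Aldh2 and Aldh3a2 did not pass the test of a linear change. Adh7 was not measured above background. Values are log2 units of the deposited expression table, in which 41.2% of all values equal the lowest value, 2.17, so that a transcript at 2.17 has only an upper bound. Probe sets with a value of at least 5 on at least 6 of the 24 arrays were tested, which kept 18526 probe sets of the array and 10 of the 16 member probe sets, from 8 of the 9 genes. A gene is described by its probe set of highest mean. Levels of different genes are not set against each other, since probe sets differ in their response.

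Between 39.4% (40 h) and 42.2% (46 h) of an array stood at the lowest value. Array medians over kept probe sets lay between 8.96 (40 h) and 9.14 (46 h), and an array correlated with the others at a median of 0.972 (12 h) up to 0.990 (38 h). Of the 7 hepatocyte markers, Alb, Apoa1, Ttr, Hnf4a and Rbp4 were kept, while Tat and Cps1 stood at 2.17 on every array. The 4 bile duct markers Krt19, Krt7, Sox9 and Epcam were all kept. None of the 6 stellate cell and 4 endothelial markers was kept, and Lrat, Pdgfrb, Reln and Pecam1 were at or near 2.17. Of the 4 macrophage markers, Cd68 and Csf1r were kept, with Adgre1 and Ptprc near 2.17.

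Below 5 on all 24 arrays were 6 member probe sets. They were both probe sets of Adh7, 1 of Adh5 and 3 of Aldh2. Adh7, the class IV enzyme of stomach and other epithelia, had 1 probe set between 2.55 and 3.21 and a second that was at the lowest value on 18 arrays and reached 2.66 at most. The second probe set of Adh5 stood at 2.17 on every array. The dim probe sets of Aldh2 averaged 3.92, 3.24 and 2.62, while another probe set of the same gene averaged 13.75, so a dim probe set did not mark a gene as silent. Adh1 lay below 5 on 1 array, at 56 h, and the remaining Aldh2 probe set, of mean 5.48, on 1 array, at 58 h.

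**Figure D1:**
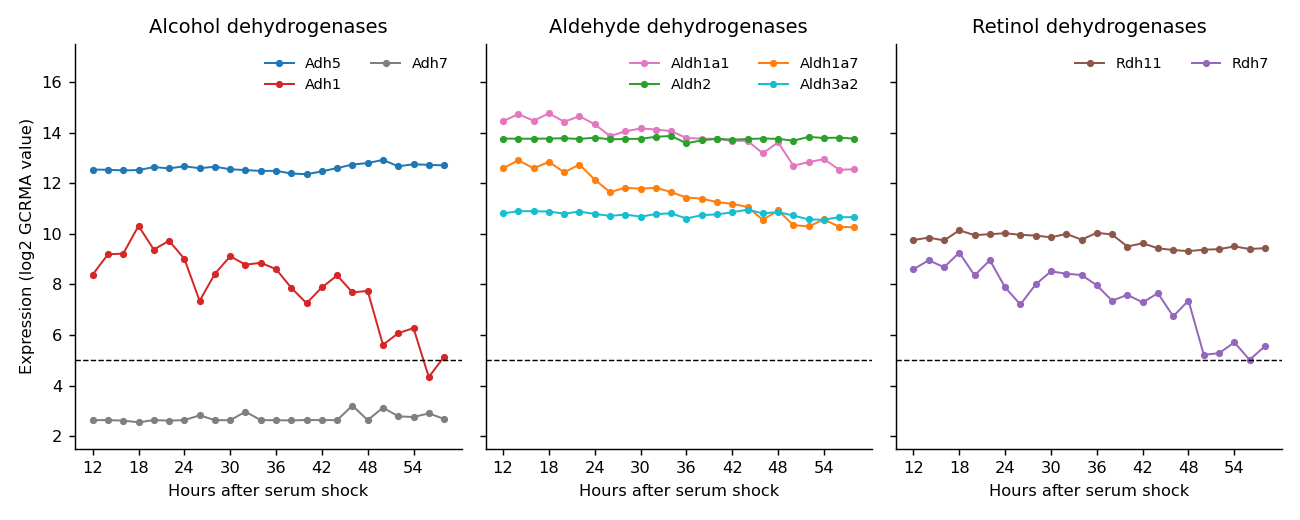
Log2 expression (y axis) of the 9 genes at each hour after serum shock (x axis), 1 array per point and 1 probe set per gene, with a dashed line at log2 5. Adh1 and Rdh7 drop by several units, Aldh1a1 and Aldh1a7 decline while staying above 10, Adh5, Aldh2 and Aldh3a2 stay within a range of 0.57, and Adh7 lies below the line throughout.

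The promoters of the 4 genes with the largest falls are shown because these genes declined together and 2 of them, Aldh1a1 and Aldh1a7, are neighbouring paralogs. Each sequence runs from 250 bases before to 50 after the start given by RefSeq on GRCm38.p6, 5′ to 3′ on the gene's strand, with position 1 at the start. Capitals mark the motifs searched on both strands: TGACNNNGC (antioxidant response element core), CACGTG (E-box), AGGTCA (core of nuclear receptor sites), CCAAT and TATAAA. The Aldh1a1 window is the second of 2 listed starts, chr19:20601718-20602017 on the plus strand. Aldh1a7 lies at chr19:20727507-20727806 on the minus strand, Adh1 at chr3:138277335-138277634 on the plus strand, and the first of 2 Rdh7 starts at chr10:127889198-127889497 on the minus strand.
Aldh1a1: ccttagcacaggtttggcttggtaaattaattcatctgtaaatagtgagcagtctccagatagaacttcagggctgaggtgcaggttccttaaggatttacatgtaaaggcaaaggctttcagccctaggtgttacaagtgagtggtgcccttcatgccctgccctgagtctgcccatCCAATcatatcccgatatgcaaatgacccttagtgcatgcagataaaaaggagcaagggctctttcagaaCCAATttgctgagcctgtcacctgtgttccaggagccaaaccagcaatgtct
Aldh1a7: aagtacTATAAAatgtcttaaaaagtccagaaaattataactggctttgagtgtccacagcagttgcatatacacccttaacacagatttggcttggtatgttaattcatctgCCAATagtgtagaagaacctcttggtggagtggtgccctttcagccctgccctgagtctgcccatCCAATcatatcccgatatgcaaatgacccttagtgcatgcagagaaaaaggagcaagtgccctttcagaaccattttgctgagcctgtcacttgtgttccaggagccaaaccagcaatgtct
Adh1: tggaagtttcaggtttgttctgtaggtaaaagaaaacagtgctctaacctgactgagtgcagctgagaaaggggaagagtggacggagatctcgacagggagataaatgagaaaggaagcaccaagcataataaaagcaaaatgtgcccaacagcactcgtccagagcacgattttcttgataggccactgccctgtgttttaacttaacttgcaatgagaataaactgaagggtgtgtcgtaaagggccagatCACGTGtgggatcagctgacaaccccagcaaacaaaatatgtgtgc
Rdh7: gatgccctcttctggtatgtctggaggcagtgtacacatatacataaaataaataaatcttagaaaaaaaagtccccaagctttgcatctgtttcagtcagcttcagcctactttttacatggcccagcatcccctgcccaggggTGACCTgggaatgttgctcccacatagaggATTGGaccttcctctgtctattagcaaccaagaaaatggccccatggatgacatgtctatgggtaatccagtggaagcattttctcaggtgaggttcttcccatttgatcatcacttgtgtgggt

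The Aldh1a1 and Aldh1a7 windows were 79.4% identical over 282 aligned bases. Other pairs of member windows gave 48.7% to 70.9% in the same alignment. The first listed start of Aldh1a1, not printed, gave 65.3% with Aldh1a7. Nearer the start the printed Aldh1a1 and Aldh1a7 windows were more alike. Between -100 and 50, 142 of 150 bases were the same at the same position. An unbroken run of 65 identical bases lay between -94 and -30. That run holds a CCAAT at -72 in both genes. Of the other matches, Aldh1a7 alone has a CCAAT at -137 and a TATAAA at -244, and Aldh1a1 alone has a CCAAT across the start, at -2. Adh1 has a CACGTG just after the start, at 5, and Rdh7 has an AGGTCA at -105 and a CCAAT at -75, both on the other strand.

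RefSeq promoters matched 8 of the 9 genes, with 12 starts. CCAAT was found in 6 of the 12 windows and in 37.4% of all 32851 promoters of the table, CACGTG in 3 of 12 and 7.15%, AGGTCA in 2 of 12 and 16.3%, TATAAA in 3 of 12 and 13.6%, and TGACNNNGC in 0 of 12 and 12.4%. The windows printed for Rdh7, Aldh1a1, Aldh1a7 and Adh1 hold 0, 1, 1 and 6 CpG dinucleotides, and the median over all promoters of the table is 7. Among the other starts, Adh5 has 3 and 26, Aldh3a2 21, Rdh11 11 and 7, Adh7 3, the first start of Aldh1a1 3 and the second of Rdh7 0. A match is a description of letters and not of a bound site.

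Adh1, Adh5 and Adh7 lie in one cluster on chromosome 3, in the RefSeq order Adh7, Adh1, Adh6a, Adh6b, Adh4, Adh5. Its genes differed in detection. Adh6b stood at 2.17 on every array, Adh4 did not pass 3.63, and Adh6a passed 5 on 3 of 24 arrays with a highest value of 5.69, while Adh1 and Adh5 were above 5 on 23 and 24 arrays. Aldh1a7 follows Aldh1a1 directly on chromosome 19, and Aldh3a2 follows Aldh3a1 on chromosome 11. Rdh7 follows Rdh1, Rdh9, Rdh16, Rdh19 and Rdh16f2 on chromosome 10, before Sdr9c7 and Hsd17b6. Of the preceding genes Rdh9 was kept, and Rdh1 and Rdh16 were not kept. Rdh19 had no probe set under its symbol alone, and Rdh16f2 was not analysed here.

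Adh1 is the class I alcohol dehydrogenase, the main ethanol-oxidizing enzyme of liver, and it also oxidizes retinol. Its level ranged from 4.33 at 56 h to 10.31 at 18 h, with a median of 8.37 over the 24 arrays. The 4 arrays of each 8 h block averaged 9.27 ± 0.79 (SD, n = 4 arrays of different hours) at 12-18 h, 8.86 ± 1.05 at 20-26 h, 8.79 ± 0.29 at 28-34 h, 7.90 ± 0.55 at 36-42 h, 7.34 ± 1.20 at 44-50 h and 5.45 ± 0.89 at 52-58 h. Every block mean lay below the one before. The 5 arrays from 50 to 58 h read 5.61, 6.07, 6.27, 4.33 and 5.14. All were lower than the 19 arrays up to 48 h, of which the lowest read 7.25 at 40 h. This cut at 50 h, used below also for Aldh1a1 and Rdh7, was picked after the values were seen. The share of all kept probe sets that separate in this way was not counted. The fitted linear change over 46 h was -3.77 ± 0.57 (SE), or 13.6-fold lower, with an adjusted p of 1.90e-05 in limma's moderated test. The value at 56 h lies below 5, where a difference in log2 value is less certain, and without that array the change was -3.44. On the arrays before 44 h it was -2.29 ± 0.82 per 46 h (adjusted p = 0.0434).

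Adh5 is the class III enzyme, which oxidizes the glutathione adduct of formaldehyde and reduces S-nitrosoglutathione. Its level stayed between 12.35 at 40 h and 12.92 at 50 h, with a median of 12.59. The linear change was 0.12 ± 0.07, with an adjusted p of 0.148. As a slope per 46 h, it depended on the hours used. It was -0.21 ± 0.07 on the arrays before 44 h (adjusted p = 0.0334) and 0.27 ± 0.08 without those from 12 to 18 h (adjusted p = 0.00597). The values of Adh1 and Adh5, from one gene cluster, had a Pearson r of -0.51 over the 24 arrays, a description without a test.

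Aldh1a1 is the cytosolic retinaldehyde dehydrogenase. Its level ranged from 12.53 at 56 h to 14.76 at 18 h, with a median of 13.82. Block means were 14.60 ± 0.16 at 12-18 h, 14.31 ± 0.33 at 20-26 h, 14.10 ± 0.06 at 28-34 h, 13.74 ± 0.05 at 36-42 h, 13.29 ± 0.45 at 44-50 h and 12.71 ± 0.21 at 52-58 h (SD, n = 4 arrays each). As for Adh1, the arrays from 50 to 58 h, at 12.69, 12.83, 12.95, 12.53 and 12.55, were all lower than the earlier ones, whose lowest read 13.18 at 46 h. The linear change was -2.01 ± 0.16, or 4.04-fold lower, with an adjusted p of 2.49e-09.

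Aldh1a7, the rodent paralog of Aldh1a1, ranged from 10.25 at 58 h to 12.91 at 14 h, with a median of 11.54. Block means were 12.73 ± 0.17 at 12-18 h, 12.24 ± 0.46 at 20-26 h, 11.77 ± 0.08 at 28-34 h, 11.31 ± 0.12 at 36-42 h, 10.72 ± 0.33 at 44-50 h and 10.34 ± 0.15 at 52-58 h. This decline was spread over the whole series, and the array at 54 h, at 10.57, was not lower than the array at 46 h, at 10.55. The linear change was -2.68 ± 0.14, or 6.42-fold lower, with an adjusted p of 3.36e-12. Probe sequences were not used here, so binding of one paralog's RNA to the other's probes could not be checked.

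Rdh7 is a microsomal short-chain dehydrogenase that acts on retinol and on hydroxysteroids. Its level ranged from 5.02 at 56 h to 9.25 at 18 h, with a median of 7.76. Block means were 8.87 ± 0.30 at 12-18 h, 8.10 ± 0.74 at 20-26 h, 8.33 ± 0.22 at 28-34 h, 7.55 ± 0.30 at 36-42 h, 6.74 ± 1.09 at 44-50 h and 5.39 ± 0.30 at 52-58 h. The arrays from 50 to 58 h, at 5.22, 5.28, 5.71, 5.02 and 5.55, were all lower than the earlier ones, whose lowest read 6.73 at 46 h. These late values lie near 5, where a difference in log2 value is less certain, so the folds of Rdh7 are uncertain. The linear change was -3.38 ± 0.43, or 10.4-fold lower, with an adjusted p of 2.11e-06. On the arrays before 44 h it was -2.24 per 46 h (adjusted p = 0.00432). As for the Aldh1a pair, binding of related RNAs to its probes could not be checked.

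Rdh11, a microsomal enzyme that mainly reduces retinaldehyde, moved within a narrower range, from 9.31 at 48 h to 10.13 at 18 h, with a median of 9.76. Its block means were 9.87, 9.98, 9.89 and 9.78 in the 4 blocks from 12-18 h to 36-42 h, then 9.37 at 44-50 h and 9.43 at 52-58 h. Array by array, it read 10.04 and 9.97 at 36 and 38 h, then 9.49 and 9.62 at 40 and 42 h, and no later array passed 9.50. The linear change was -0.72 ± 0.13, with an adjusted p of 9.88e-05. Fitted to the arrays before 44 h it was -0.22 ± 0.20 per 46 h, with an adjusted p of 0.429. The second probe set of Rdh11 gave a linear change of -0.39 ± 0.15, with an adjusted p of 0.0365.

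Aldh2 is the mitochondrial enzyme that oxidizes acetaldehyde. It stayed between 13.58 at 36 h and 13.86 at 34 h, with a median of 13.76, and its linear change was -0.02 ± 0.05, with an adjusted p of 0.701. A probe set near background, of mean 5.48, gave -0.71 ± 0.18, with an adjusted p of 0.00269, so the 2 kept Aldh2 probe sets disagree. Aldh3a2, the fatty aldehyde dehydrogenase of the endoplasmic reticulum, stayed between 10.55 at 54 h and 10.95 at 44 h, with a median of 10.78. Its linear change was -0.11 ± 0.06, with an adjusted p of 0.145.

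Of the 8 kept members, 5 fell over the series, 0 rose and 3 did not pass the test, with a median change of -1.37. Among all 18526 kept probe sets, 16.7% were called lower and 24.9% higher, and the median change was 0.06. These were 3087 probe sets lower and 4604 higher, and with each array centred on its median 3952 lower and 3653 higher, with Aldh3a2 then also lower (-0.18, adjusted p = 0.0239). The count of 5 was the same in all 24 fits that left out 1 array. On the arrays before 44 h, 5 members were also lower, with Adh5 in place of Rdh11, and 2987 of the 18526 kept probe sets were lower. Over the same 46 h, 3 of the 5 kept hepatocyte markers fell (Alb, Apoa1 and Ttr) and 1 rose (Rbp4). The summed level of the 7 markers was 16.36 to 16.51 at 52-58 h, against 16.94 to 17.11 at 12-18 h. The summed level of the 4 bile duct markers was 15.35 to 15.48 at 52-58 h, against 15.74 to 15.84 at 12-18 h, with 1 of the 4, Epcam, lower. The part of these shifts in the members' falls was not tested, and in bulk RNA fewer expressing cells and less RNA per cell cannot be told apart.

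**Figure D2:**
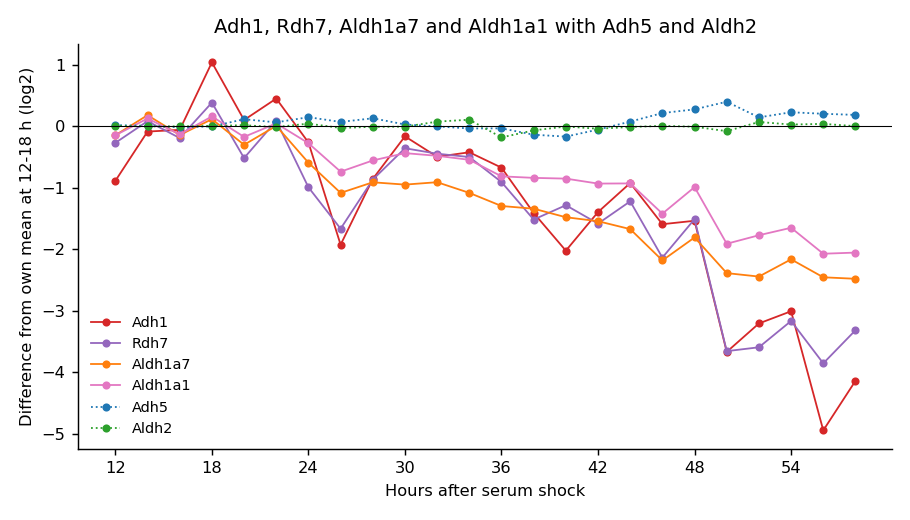
Difference of each gene from its own mean at 12-18 h (y axis, log2) at each hour after serum shock (x axis), 1 array per point, for Adh1, Rdh7, Aldh1a7 and Aldh1a1 (solid lines) and for Adh5 and Aldh2 (dotted lines). All solid lines dip at 26 h, fall at 46 h and drop at 50 h, by more in Adh1 and Rdh7 than in Aldh1a7 and Aldh1a1. Adh1 and Rdh7 recover from the dip by 30 h, and the dotted lines stay near 0.

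The stated aim of the series was a circadian profile, so a 24 h rhythm was tested beside the drift. Of the 8 kept members, 1 passed the test, against 2.59% of all kept probe sets. This was Adh5, with an amplitude of 0.12 ± 0.03 on the log2 scale, a first peak at 26.0 h and an adjusted p of 0.0481. That call lay at the threshold and was lost in 19 of the 24 fits that left out 1 array, with an adjusted p of up to 0.0912 without the array at 40 h. The fitted cosine of Aldh3a2 had an amplitude of 0.09 ± 0.02 and an adjusted p of 0.0907. Adh1 and Rdh7 had amplitudes of 0.46 ± 0.24 and 0.31 ± 0.18 about their falling lines, with adjusted p of 0.437 and 0.529.

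Blocks of 4 arrays that lie 24 h apart cover the same hours of a 24 h cycle. A rhythm of exactly 24 h and constant amplitude therefore does not enter their difference. Another period or a changing amplitude could enter it, and neither was tested. Arrays of a block are different hours and not replicates, so their spread also holds any change within the block. From 36-42 h against 12-18 h, 3 of the 8 kept members fell and 0 rose, with 12.6% of all kept probe sets lower and 12.4% higher. Aldh1a7 fell by 1.41 ± 0.17 (adjusted p = 1.67e-06), Aldh1a1 by 0.86 ± 0.16 (adjusted p = 5.05e-04) and Rdh7 fell by 1.32 ± 0.37 (adjusted p = 0.0121, or 0.0528 with no filter on low values). Adh1 had a difference of similar size, -1.38 ± 0.54, with wider scatter and an adjusted p of 0.0660. It passed the threshold without the array at 12, 26, 36 or 50 h, with values from -1.67 to -1.38. Rdh11, Aldh3a2, Adh5 and Aldh2 differed by -0.09, -0.13, -0.10 and -0.08, with adjusted p of 0.117 or more.

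Across the next interval, 44-50 h against 36-42 h, 3 members fell and 1 rose, with 11.4% of all kept probe sets lower and 20.3% higher (2121 and 3755, or 3188 and 2795 after centring). Aldh1a7 fell by 0.60 ± 0.17 (adjusted p = 0.00851) and Rdh11 by 0.42 ± 0.10 (adjusted p = 0.00247). Aldh1a1 fell by 0.45 ± 0.16 (adjusted p = 0.0383), and this call was lost in 6 of the fits that left out 1 array. Without the array at 50 h its difference was -0.25. Rdh7 differed by -0.81 ± 0.37 (adjusted p = 0.103), by -0.30 without the array at 50 h and by -1.11 without that at 44 h, where it passed with an adjusted p of 0.0259. Adh1 differed by -0.55 ± 0.54 (adjusted p = 0.457) and by 0.02 without the array at 50 h. With 24 h terms added to the fit, or with blocks of 2 arrays on either side of 43 h, 0 members were called lower in this interval, while Adh5 was called higher in both.

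Adh5 was the member that rose over this interval. Its 4 arrays at 44, 46, 48 and 50 h read 12.60, 12.73, 12.79 and 12.92, against 12.49, 12.38, 12.35 and 12.47 at 36, 38, 40 and 42 h. The blocks do not overlap, and the share of all kept probe sets without overlap was not counted. The difference was 0.34 ± 0.05, or 1.26-fold higher, with an adjusted p of 5.71e-05. The call held in all 24 fits that left out 1 array, with values from 0.29 to 0.39.

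From 52-58 h against 28-34 h, again 24 h apart, 5 members fell and 1 rose, with 14% of all kept probe sets lower and 20.4% higher. Adh1 fell by 3.34 ± 0.54, or 10.1-fold (adjusted p = 5.39e-05), with 6.07, 6.27, 4.33 and 5.14 at 52, 54, 56 and 58 h, against 8.42, 9.11, 8.78 and 8.85 at 28, 30, 32 and 34 h. Rdh7 fell by 2.94 ± 0.37, or 7.66-fold (adjusted p = 2.65e-06), with 5.28, 5.71, 5.02 and 5.55 in the later block, against 8.001, 8.51, 8.42 and 8.37 in the earlier one. For both genes every later array was more than 2 log2 units lower than every earlier one. Some of their later values lie near or below 5, so these folds are less certain. Between these blocks 7 of the 8 kept members did not overlap, among them Aldh3a2, which did not pass the test. The share of all kept probe sets without overlap was not counted. Aldh1a7 fell by 1.42 ± 0.17, or 2.68-fold (adjusted p = 7.79e-07), Aldh1a1 by 1.38 ± 0.16, or 2.60-fold (adjusted p = 1.00e-06), and Rdh11 by 0.46 ± 0.10, or 1.37-fold (adjusted p = 8.91e-04).

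Adh5 was 0.16 ± 0.05 higher at 52-58 h than at 28-34 h (adjusted p = 0.0243), a call that was lost without the array at 32, 34, 54 or 56 h and after each array was centred on its median. Aldh3a2 differed by -0.15 ± 0.06 (adjusted p = 0.0535) and Aldh2 by -0.01 ± 0.04 (adjusted p = 0.917). For the Aldh2 probe set of highest mean, the largest difference in the 3 block comparisons was the -0.08 ± 0.04 of 36-42 h against 12-18 h. The other kept Aldh2 probe set, near background, differed there by -0.74 ± 0.15 (adjusted p = 8.87e-04).

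**Figure D3:**
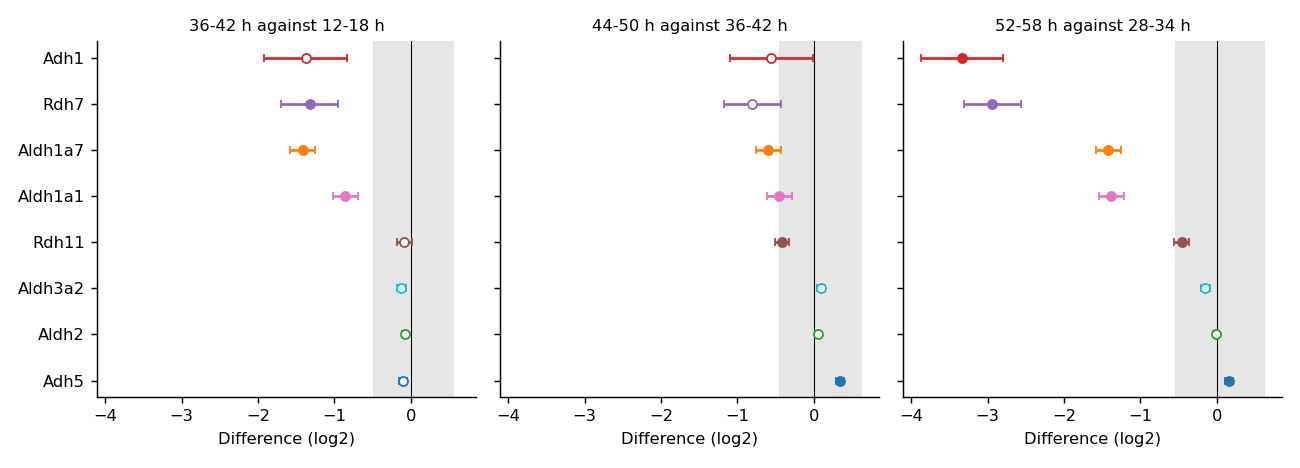
Difference between blocks of 4 arrays (x axis, log2, with SE bars) for the 8 kept members (y axis), later block minus earlier block. Filled points passed an adjusted p of 0.05, open points did not, and the grey band spans the 5th to the 95th percentile of all kept probe sets. Adh1, Rdh7, Aldh1a7 and Aldh1a1 lie left of the band in the left and right panels. In the middle panel Adh1, Rdh7 and Aldh1a7 also lie left of it, with long bars for Adh1 and Rdh7, and Aldh1a1 lies at its edge.

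Between the last block and the first, 52-58 h against 12-18 h, the 4 strongly falling genes differed by -3.82 for Adh1, -3.48 for Rdh7, -2.38 for Aldh1a7 and -1.89 for Aldh1a1, or 14.1-, 11.2-, 5.22- and 3.70-fold lower. By 36-42 h, Aldh1a7 had passed 59.3% of this log2 difference, Aldh1a1 45.6%, Rdh7 38.0% and Adh1 36.0%. These shares are descriptions, and the differences between them were not tested. The folds of Adh1 and Rdh7 are less certain, since some of their late values lie near or below 5.

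Falls shared by the 4 strongly falling genes were seen in several single intervals of 2 h. At 50 h against 48 h, 1 array each, the log2 difference was -2.13 for Adh1 (4.38-fold lower), -2.14 for Rdh7 (4.42-fold), -0.92 for Aldh1a1 (1.89-fold) and -0.58 for Aldh1a7 (1.49-fold). All 4 were lower by at least 0.5, a size passed by 5.46% of all kept probe sets in this interval. An earlier dip was seen at 26 h against 24 h, with -1.66 for Adh1, -0.67 for Rdh7, -0.49 for Aldh1a7 and -0.46 for Aldh1a1. Here 2.25% of all kept probe sets were lower by at least 0.5, a size that Adh1 and Rdh7 passed and Aldh1a7 and Aldh1a1 did not. All 4 were also lower at 24 h than at 22 h, with -1.08 for Rdh7, -0.71 for Adh1, -0.60 for Aldh1a7 and -0.32 for Aldh1a1. At 46 h against 44 h they differed by -0.91 for Rdh7, -0.67 for Adh1, -0.51 for Aldh1a7 and -0.49 for Aldh1a1. The 5th percentile of all kept probe sets in that interval was -0.42. These intervals were picked after the values were seen, and with 1 array per time none has a replicate check.

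The 26 h dip was followed by a return in Adh1 and Rdh7. Adh1 read 9.01, 7.35, 8.42 and 9.11 at 24, 26, 28 and 30 h, and Rdh7 read 7.88, 7.20, 8.001 and 8.51. After 50 h no such return was seen, and at 56 h against 54 h Adh1 differed by a further -1.94. Of the 23 intervals between consecutive arrays, the 4 genes were all lower in 8, all higher in 6 and split in 9.

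**Figure D4:**
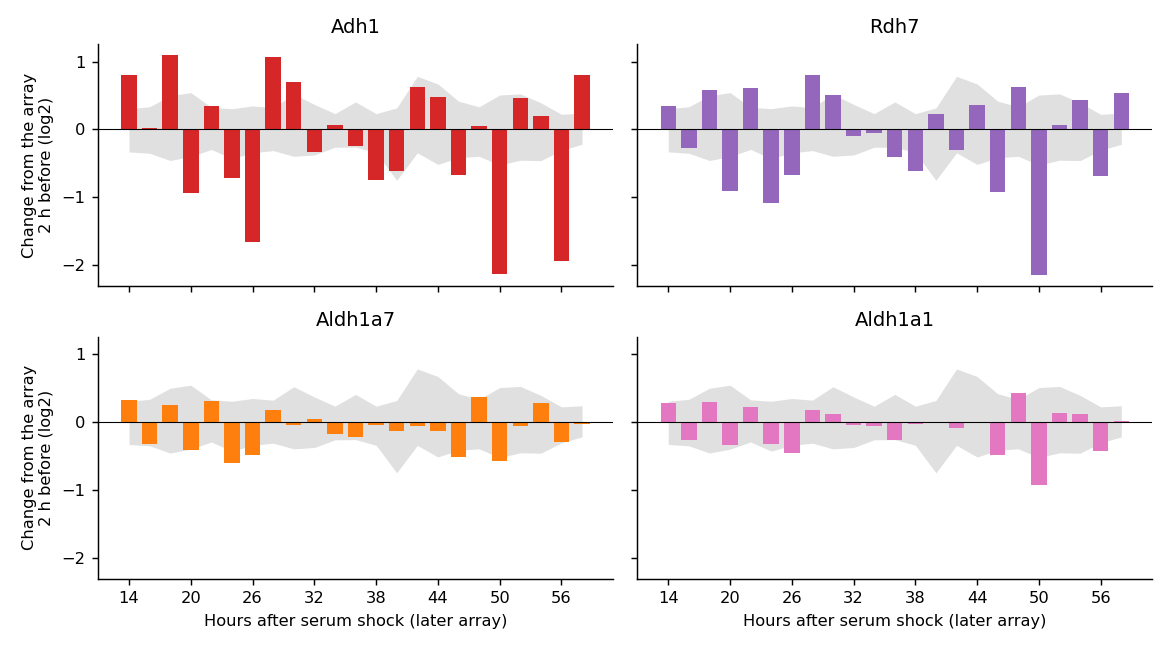
Change from the array 2 h before (y axis, log2) for Adh1, Rdh7, Aldh1a7 and Aldh1a1, at the hour of the later array (x axis), with the grey band spanning the 5th to the 95th percentile of all kept probe sets in that interval. The bars at 50 h reach below the band in all 4 genes, and those at 26 h and 46 h do so too, while Adh1 and Rdh7 also pass the band upwards at 28 h.

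The courses of these 4 genes, picked for their large falls, were alike before and after a straight line was removed. Taking out a line leaves any part of a shared fall that is not straight, such as the drop at 50 h. Likeness beyond the decline was therefore not tested. Over the 24 arrays, Pearson r was 0.957 between Adh1 and Rdh7, 0.971 between Aldh1a1 and Rdh7, 0.944 between Adh1 and Aldh1a1 and 0.974 between Aldh1a1 and Aldh1a7. With a straight line removed from each gene, these were 0.854, 0.905, 0.867 and 0.732. Adh1 and Aldh1a7 were the least alike of the 4 after this step, at 0.512. Rdh11 gave values between 0.191 and 0.278 with the 4 genes after the line was removed, where it had 0.731 to 0.787 before. All genes share the same arrays, so these correlations hold any array-wide error and are given without a p.

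The genes on the array whose courses were most alike were taken for each of the 4, out of 9817 kept genes outside the 9. For Adh1 they were Apoa1, the main protein of high-density lipoprotein (r = 0.968), Fmo5, a flavin monooxygenase (r = 0.965), and Alpi, an intestinal alkaline phosphatase (r = 0.963). For Aldh1a1 they were Reg3g, a secreted antibacterial lectin (r = 0.982), Fut2, a fucosyltransferase (r = 0.976), and Hsd17b2, which oxidizes sex steroids (r = 0.974). Rdh7 shared Fut2 (r = 0.971) and Hsd17b2 (r = 0.960) with Aldh1a1 and had Aadac, an arylacetamide deacetylase of liver (r = 0.969), between them. For Aldh1a7 they were 2210407C18Rik (r = 0.979), Cdadc1 (r = 0.974) and Cyb5b, an outer mitochondrial cytochrome b5 (r = 0.972). Each r is over 24 arrays and holds the shared decline. With a straight line removed, r was 0.900 to 0.908 for the 3 genes of Adh1, 0.812 to 0.846 for those of Aldh1a1, 0.814 to 0.880 for those of Rdh7 and 0.616 to 0.750 for those of Aldh1a7.

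Related enzymes on the array did not follow one direction. Of 16 other aldehyde dehydrogenases 11 were kept, and over 46 h 3 fell, 5 rose and 3 did not pass, with a median change of -0.13. Aldh16a1 fell by 0.80 ± 0.13, Aldh6a1, of valine breakdown, by 0.57 ± 0.09, and Aldh9a1, of carnitine synthesis, by 0.55 ± 0.09. In 44-50 h against 36-42 h, Aldh18a1, of proline synthesis, rose by 2.06 ± 0.10 (adjusted p = 1.21e-12) and Aldh1l2, of mitochondrial folate metabolism, by 5.50 ± 0.37 (adjusted p = 1.44e-10). Aldh1l2 averaged 8.34 ± 1.30 at 44-50 h, against 2.85 ± 0.14 at 36-42 h (SD, n = 4 arrays each), so its earlier level was below 5 and the fold is uncertain. It reached 5 on 8 arrays, all from 44 h on, and so passed the filter only through the hours where it was high. Its adjusted p and its place among the 5 that rose carry this limit. Aldh3b1 fell by 0.60 ± 0.15 in the same comparison (adjusted p = 0.00328), a call that was lost with 24 h terms added (adjusted p = 0.127) and with blocks of 2 arrays (adjusted p = 0.0676).

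Of 19 other alcohol and retinol dehydrogenases, 16 were on the array under 1 symbol and 8 were kept, of which 3 fell over 46 h, 1 rose and 4 did not pass, with a median of -0.40. Dhrs4, a peroxisomal carbonyl and retinal reductase, fell by 1.51 ± 0.14, with block means of 8.90 ± 0.05 at 52-58 h, against 10.16 ± 0.09 at 12-18 h. On the arrays before 44 h its slope was -0.75 per 46 h. Rdh9, a neighbour of Rdh7, fell by 0.91 ± 0.28 (adjusted p = 0.0120). Without the arrays from 12 to 18 h its slope was -0.69 per 46 h (adjusted p = 0.106). Rdh14 fell by 0.50 ± 0.08. Dhrs3, which reduces retinaldehyde to retinol, rose by 0.62 ± 0.11 in 44-50 h against 36-42 h (adjusted p = 1.23e-04), while Dhrs4 fell by 0.61 ± 0.09. Rdh13 differed by 0.52 ± 0.24 in this comparison (adjusted p = 0.0991). The 1 gene of this list with a 24 h rhythm, named after its values were seen, was Rdh10, which makes retinaldehyde in the embryo, with an amplitude of 0.26 ± 0.04 and an adjusted p of 7.69e-04.

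Of 17 aldo-keto and carbonyl reductases, which reduce aldehydes and ketones, 10 were kept, and 5 fell, 0 rose and 5 did not pass, with a median of -0.31. Akr1c19 fell by 1.36 ± 0.11, and Akr1c12 and Akr1c13 each by 0.46, with SEs of 0.07 and 0.06. In 44-50 h against 36-42 h 4 of the 10 fell, among them Akr1c19 by 0.65 ± 0.12 and Cbr1, a carbonyl reductase, by 0.60 ± 0.08. Of the other genes of ethanol and acetate metabolism, Cyp2e1, the microsomal ethanol oxidase, stood at 2.17 on all arrays and Acss1 was not kept. Cat, the catalase that can oxidize ethanol, fell by 0.78 ± 0.11, with a slope of -0.45 per 46 h on the arrays before 44 h. Acss2, which activates acetate, fell by 0.58 ± 0.23 (adjusted p = 0.0454). The call of Acss2 was lost in 15 of the 24 fits that left out 1 array. On the arrays before 44 h the slope of Acss2 was 0.60 per 46 h (adjusted p = 0.0468).

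Of 22 genes of retinoid binding, storage, oxidation and reception 9 were kept, with 3 lower, 2 higher and 4 that did not pass, and a median of -0.10. Rbp2, a cellular retinol-binding protein of intestine, fell by 2.27 ± 0.33 (adjusted p = 1.20e-05), with block means of 9.63 ± 0.33 at 52-58 h, against 11.76 ± 0.27 at 12-18 h. Rbp4, the secreted retinol carrier, rose by 0.54 ± 0.11 and Rarg, a retinoic acid receptor, by 0.79 ± 0.13. On the arrays before 44 h their slopes were 0.03 and 0.38 per 46 h, with adjusted p of 0.897 and 0.0813. In 44-50 h against 36-42 h, Rxrb, a partner of the retinoic acid receptors, rose by 0.23 ± 0.08 (adjusted p = 0.0355), Rarg by 0.28 ± 0.11 (adjusted p = 0.0471) and Rbp4 by 0.25 ± 0.08 (adjusted p = 0.0196). With 24 h terms added, the adjusted p of these differences were 0.0621 for Rxrb, 0.0714 for Rarg and 0.224 for Rbp4. Lrat, which esterifies retinol, Cyp26a1, which degrades retinoic acid, and Stra6, a receptor for Rbp4, averaged 2.17, 2.17 and 2.18, at or near the lowest value. Each gene was tested against no change, and no list was tested against the background or against another list.

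**Figure D5:**
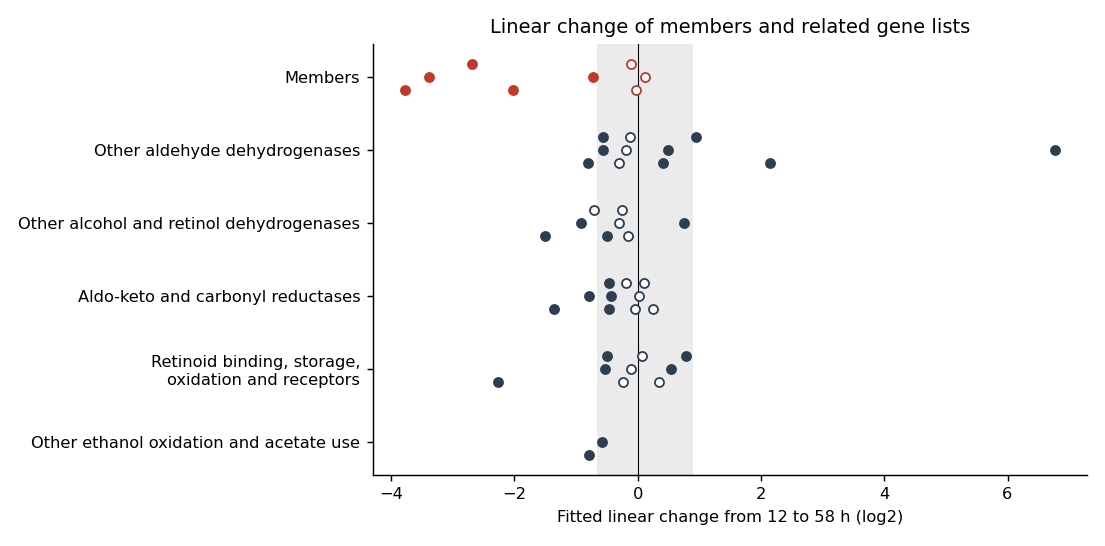
Fitted linear change from 12 to 58 h (x axis, log2) of the kept members (top) and of the kept genes of 5 related lists (y axis), filled where the adjusted p was under 0.05, with the grey band spanning the 5th to the 95th percentile of all kept probe sets. Adh1, Rdh7, Aldh1a7 and Aldh1a1 are the 4 leftmost points of the top line, Rbp2 and Dhrs4 are the leftmost of their lists, and Aldh1l2 lies far to the right.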

How the data were processed

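RNA of 24 MMH-D3 samples was measured on 1-colour Affymetrix arrays, 1 per time point. The deposited log2 values come from GCRMA, per the submitters' processing notes, a method that corrects background, normalizes arrays together and summarizes probes. Its version was not given in the sources used here, and the log2 scale follows from the range of the values. GCRMA pulls dim probe sets to a common floor, so changes near it are uncertain. The table held 45101 probe sets, of which the platform annotation gave 1 symbol for 34945, several for 932 and none for 9224. The 64 control probe sets (0.142% of the table) stayed out of the tests.

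The members, gene lists, markers and time blocks were chosen with earlier results of these data known. Probe sets at log2 5 or more on at least 6 arrays were tested with limma 3.58.1 in R 4.3.3, with the variance prior following intensity and Benjamini-Hochberg adjustment over 18526 probe sets at 0.05. One model held a linear term and the cosine and sine of 24 h, and a second the means of 6 blocks of 4 arrays. The linear change is the fitted slope per 46 h, also in fits to fewer hours. SEs are those of the fits. Nothing says that samples came from separate cultures, so p-values measure the scatter between these arrays, which may be technical, and their number limits the precision. On simulated data with 200 changed probe sets of 18526, a change of 1 log2 unit was recovered in 89.5% for the linear term. For 44-50 h against 36-42 h it was recovered in 91.5%, and a rhythm with an amplitude of 1 log2 unit in 99.5%. The simulated arrays had independent scatter and far fewer changed probe sets than were called here. These shares thus do not give the power of the tests in these data.

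Beside the 9 members with all probe sets, the text names from each related list the 3 genes of smallest p for the linear change and the 3 for 44-50 h against 36-42 h, and for each kept member spanning at least 1 log2 unit the 3 genes of highest Pearson r. Alternatives were other normalizations and filters, other time terms, other blocks and leaving out each array. Promoter sequences and gene order came from RefSeq, GRCm38.p6.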

Additional observations from a re-analysis of the deposited data

Results flagged for a closer look

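Among the 48 sets of 4 arrays formed by the 8 kept members and the 6 blocks, 2 held an array that stood far from the other 3, where chance gives about 1 in 20. The gap to the nearest array, divided by the range of the block, was above the critical value of Dixon's test for 4 values in both. Aldh1a7 read 10.57 at 54 h, while the other arrays of 52-58 h lay between 10.25 and 10.29. Aldh3a2 read 10.80 at 12 h, while the other arrays of 12-18 h lay between 10.88 and 10.89, a gap of under 0.1 log2 units.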

How the results depend on the processing

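The falls of Adh1, Aldh1a1, Aldh1a7 and Rdh7 over 46 h and in 52-58 h against 28-34 h kept their direction and their call under every alternative run, except that Adh1 could not be tested where log2 5 was required on every array. In the linear change, 1 member was called higher, Adh5, without the 24 h terms and without the arrays from 12 to 18 h. Without the arrays from 44 to 58 h, Adh5 turned to -0.21 per 46 h and was called lower. Acss2 turned to 0.60 per 46 h, and Rdh11 lost its call. For the 24 h rhythm, 0 members were called with no filter or with no intensity trend in the variance, and 2 without the arrays from 12 to 18 h or with no linear term. With 1 array left out, 0 to 1 members were called. With 24 h terms added, 5 members were lower in 36-42 h against 12-18 h. In 44-50 h against 36-42 h, 0 were lower with these terms or with blocks of 2 arrays (44 and 46 h against 40 and 42 h), where Adh1 turned to 0.45. With 1 array left out Adh1 ran from -0.89 to 0.02. In 52-58 h against 28-34 h, 0 members were higher after centring and 0 to 1 with 1 array left out. Small differences changed sign: Aldh2 reached 0.0048 (linear) and 0.025 (52-58 h against 28-34 h) after quantile normalization and -0.017 (44-50 h against 36-42 h) after centring. With 1 array left out, Rdh11 ran from -0.17 to 0.0096 in 36-42 h against 12-18 h, and Aldh2 from -0.024 to 0.015 in 52-58 h against 28-34 h. Over all probe sets, 479 rhythmic ones became 198 with no filter, 750 with a step, 2064 with a quadratic drift, 1602 without 44 to 58 h, 2672 without 12 to 18 h, and 174 to 706 with 1 array left out. The 4604 linear rises became 2657 without 44 to 58 h. In 44-50 h against 36-42 h, the 2121 lower became 814 and the 3755 higher 2284 with 24 h terms, and 1365 were lower with blocks of 2 arrays. The causes were not tested. The labels give no replicate numbers, so no samples were paired by number, and a fit paired by clock hour was not run.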
